A study of Mus musculus with 6 samples.

Results

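The 44 genes described here encode subunits of Polycomb repressive complexes 1 and 2 (PRC1 and PRC2), the deubiquitinase complex PR-DUB, trithorax-group methyltransferases and their partners, the H3K27 demethylases and the insulator protein Ctcf. They were taken by gene symbol from 56805 genes in the deposited table, all 44 were found, and all 44 passed the filter on low counts. Total RNA depleted of ribosomal RNA was sequenced from mouse motor neurons of 2 regions of the spinal cord at e12.5. There were 3 cervical and 3 thoracic libraries, all of control genotype and without treatment per the labels. Strain, sex, the number of embryos per library and the way motor neurons were isolated stand in none of the labels used here. The design text calls the replicates biological, without saying whether they came from separate embryos or litters, and a p-value speaks only for the spread among these 6 libraries.

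Polycomb and trithorax proteins keep genes silent or active through cell divisions, and the Hox clusters are their best known targets. PRC2 methylates lysine residues of histone H3 at silent genes, PRC1 ubiquitinates histone H2A and compacts chromatin, and trithorax methyltransferases and H3K27 demethylases act on the active state. In motor neurons the boundary between silent and active Hox genes shifts along the cord, and in mouse cells Ctcf binding within Hox clusters has been tied to the position of that boundary. The comparison made here is whether the RNA of these regulators differs between the cervical and thoracic regions.

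None of the 44 genes differed between cervical and thoracic libraries when tested with edgeR (quasi-likelihood, Benjamini-Hochberg adjusted over 21972 genes, threshold 0.05), which called 0.542% of all tested genes, 0.191% as higher in cervical and 0.35% as higher in thoracic libraries. DESeq2, limma-voom and the fit with the replicate number as a block also called 0 of the 44, against 2.1%, 0.487% and 1.97% of the genes they tested. At an unadjusted p below 0.05 there was 1 gene, Bmi1, against 8.47% of all tested genes. The smallest adjusted p of any of the 44, over the main and all alternative fits, was 0.0671. Log2 fold changes, cervical minus thoracic, ran from -0.14 to 0.23 with a median of 0.00, beside a median of 0.01 for all tested genes, and 24 lay above 0 and 20 below. Their median size was 0.04, beside 0.13 for all tested genes, which have a lower median level (2.71 CPM per kb of exon, against 17.9 CPM per kb for the 44). CPM are counts of a gene scaled to the size of the library (edgeR CPM with TMM factors).

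For 43 of the 44 genes the 95% confidence interval of the fold change lay inside 1.5-fold in either direction, and for 35 it lay inside 1.25-fold. The exception was Phf19, an accessory subunit of PRC2 at less than 1.2 CPM in every library, whose interval ran from 0.52 to 2.25 cervical over thoracic. The intervals are those of single genes and were not adjusted for their number. They come from the main fit, which ignores the pairing of libraries by replicate number.

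**Figure D1:**
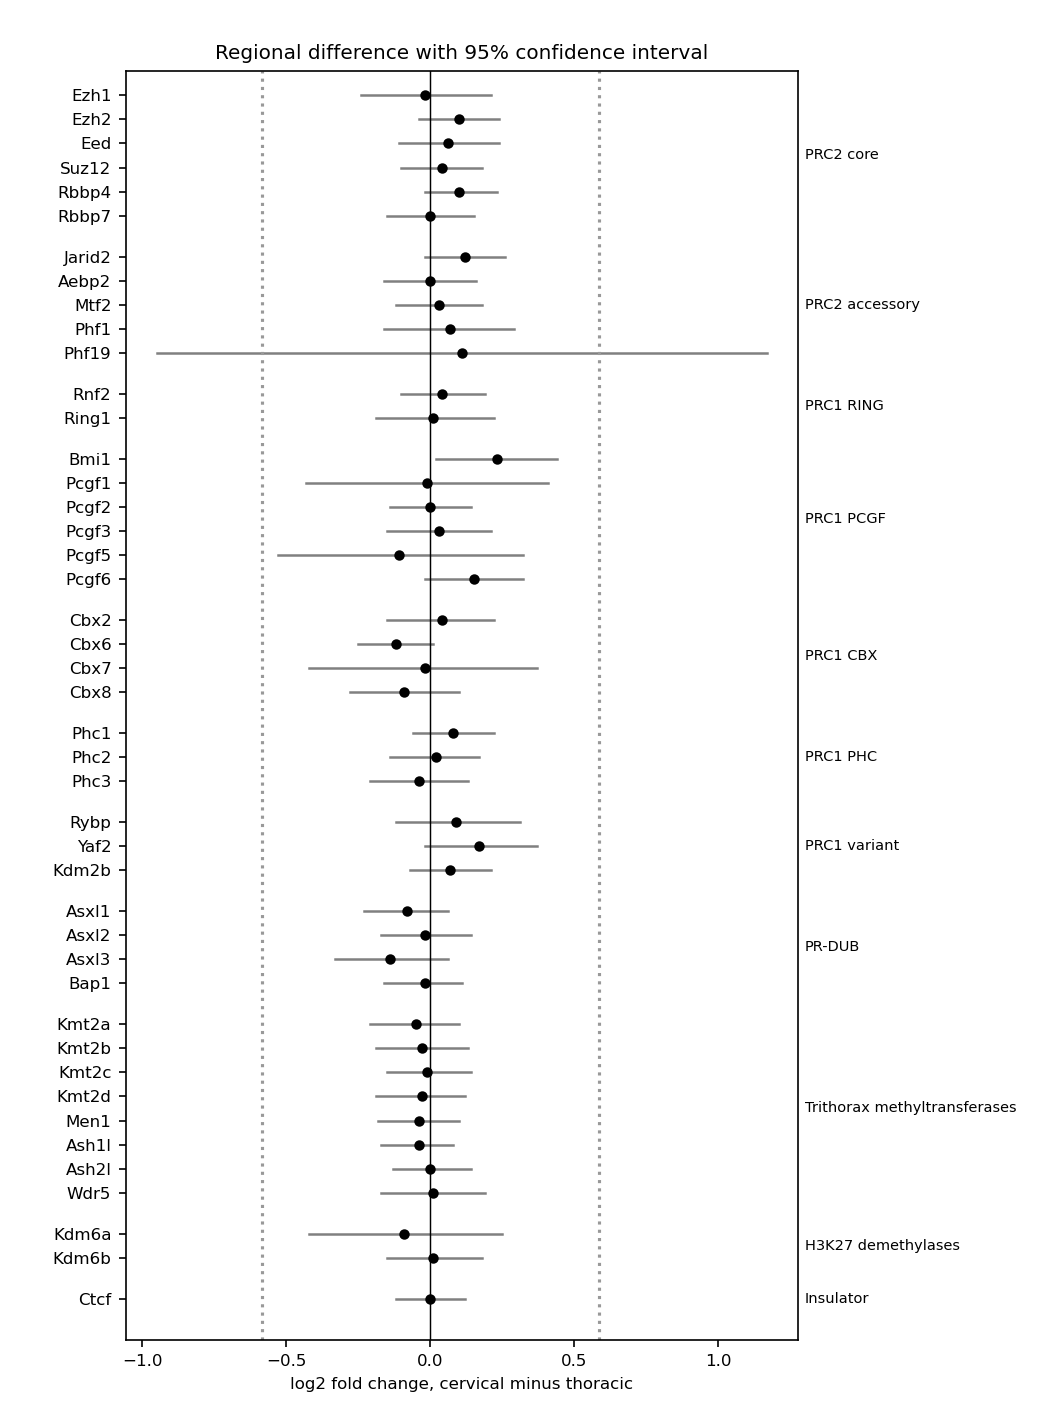
Log2 fold change, cervical minus thoracic (points), with its 95% confidence interval (bars) for each of the 44 genes, ordered by complex; dotted lines mark 1.5-fold in either direction. All intervals but that of Phf19 lie between the dotted lines, and all but that of Bmi1 (0.02 to 0.44) include 0.

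Levels differed far more between genes than between regions. Per length, the most abundant was the demethylase gene Kdm6b, at 66.5 ± 6.14 CPM per kb in cervical and 65.9 ± 3.70 CPM per kb in thoracic libraries (SD, n = 3 each, as for all SDs below). The PRC2 accessory gene Jarid2 came next, at 41.6 ± 2.37 CPM per kb in cervical and 38.4 ± 1.57 CPM per kb in thoracic libraries. Kmt2d, Kmt2a and Rnf2 followed, with means of 35.4, 35.3 and 34.0 CPM per kb over both regions, which lie within their spread. At the low end stood Cbx7, Pcgf5 and Phf19, with means of 0.779, 0.406 and 0.166 CPM per kb over both regions. The highest mean was 399-fold above the lowest, and 21 of the 44 genes reached 20 CPM per kb. The lengths are those of all annotated exons of a gene, so genes with long minor isoforms are placed too low by this measure.

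**Figure D2:**
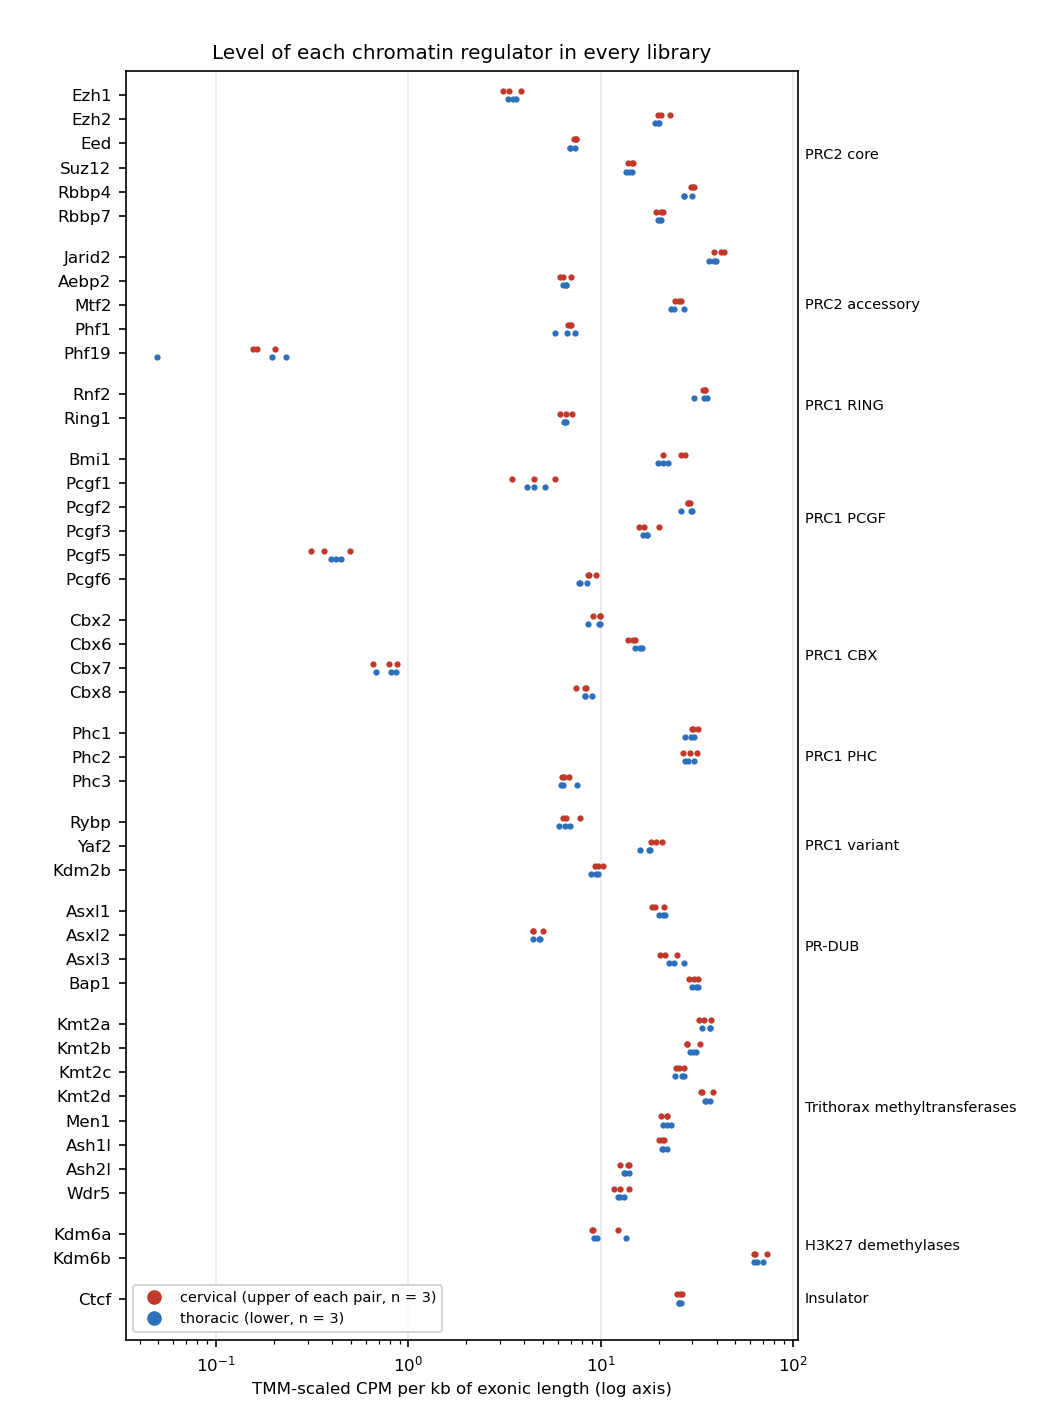
Level of each of the 44 genes in TMM-scaled CPM per kb of exonic length on a log axis, with 1 point per library (red, cervical; blue, thoracic) and genes grouped by complex. Cervical and thoracic points of a gene lie close together, while genes range from 0.166 CPM per kb (Phf19) to 66.2 CPM per kb (Kdm6b).

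The 6 core genes of PRC2 had log2 fold changes of -0.02 to 0.10. Ezh2, the main catalytic subunit in dividing cells, stood at 152.2, 133.3 and 138.0 CPM in the cervical set, against 134.4, 128.3 and 132.7 CPM in the thoracic set. The regions overlapped (log2 fold change of 0.10 with SE 0.06, 95% interval -0.04 to 0.24, edgeR adjusted p = 0.780). Its paralog Ezh1, which is known for non-dividing cells, stood at 24.9, 23.1 and 28.6 CPM in the cervical set, against 27.1, 25.9 and 24.4 CPM in the thoracic set. These values overlapped as well (log2 fold change of -0.02 with SE 0.10, edgeR adjusted p = 0.991). Ezh2 thus made up 86.0 ± 1.5% of the per-length sum of both genes in cervical and 85.1 ± 0.68% in thoracic libraries.

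The promoter sequences of a few genes are shown for reading beside their levels. The windows of 300 bases (250 before the RefSeq start and 50 after it, GRCm38.p6) are those of the 2 paralogs with unequal levels, of Bmi1, which had the smallest p, and of Kdm6a, which varied with the replicate number. Capitals mark TTTGGCGC and TTTCCCGC (E2F-type), CCAAT and GGGCGG on either strand.
Ezh2, chr6:47594981-47595280, minus strand: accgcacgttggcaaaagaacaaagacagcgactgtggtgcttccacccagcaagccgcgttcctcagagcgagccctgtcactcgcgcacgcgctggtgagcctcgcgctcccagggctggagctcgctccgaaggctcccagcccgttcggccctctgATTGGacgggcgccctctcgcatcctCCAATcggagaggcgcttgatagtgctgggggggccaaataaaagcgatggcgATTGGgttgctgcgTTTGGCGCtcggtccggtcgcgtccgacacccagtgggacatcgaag
Ezh1, chr11:101226414-101226713, minus strand: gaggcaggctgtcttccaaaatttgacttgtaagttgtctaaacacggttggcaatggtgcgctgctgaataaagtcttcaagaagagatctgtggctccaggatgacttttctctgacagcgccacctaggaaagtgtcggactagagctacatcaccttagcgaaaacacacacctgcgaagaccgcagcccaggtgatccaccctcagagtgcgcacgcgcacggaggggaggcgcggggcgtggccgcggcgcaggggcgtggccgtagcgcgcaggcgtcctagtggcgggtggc
Bmi1, chr2:18676768-18677067, plus strand: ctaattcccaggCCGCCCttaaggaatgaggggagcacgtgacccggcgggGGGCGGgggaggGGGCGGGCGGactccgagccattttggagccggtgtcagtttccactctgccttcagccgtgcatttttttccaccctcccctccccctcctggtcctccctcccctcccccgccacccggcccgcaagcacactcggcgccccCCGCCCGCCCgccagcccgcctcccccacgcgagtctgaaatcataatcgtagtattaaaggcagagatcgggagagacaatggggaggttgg
Kdm6a, chrX:18162325-18162624, plus strand: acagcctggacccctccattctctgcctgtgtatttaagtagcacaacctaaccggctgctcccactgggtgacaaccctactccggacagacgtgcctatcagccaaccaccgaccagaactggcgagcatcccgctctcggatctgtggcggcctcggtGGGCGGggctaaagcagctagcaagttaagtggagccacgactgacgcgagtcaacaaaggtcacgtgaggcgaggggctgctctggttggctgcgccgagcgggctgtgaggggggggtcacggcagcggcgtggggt
The Ezh2 window held 1 E2F-type match and 3 CCAAT matches, whereas the Ezh1 window held none of the 4 motifs. The Bmi1 window held 6 matches to GGGCGG, some overlapping, and the Kdm6a window 1. Of the 44 genes, 35 had windows in the table, 48 in all, since some genes have several starts. E2F-type matches were in 3 of the 48 windows, those of Ezh2, Suz12 and Phf19, that is 6.25%, beside 1.56% of all 32851 windows. GGGCGG was in 79.2% of the 48 windows, beside 35.7% of all, and TATAAA in 2.08%, beside 13.6% of all. The median number of CG dinucleotides was 24 in these windows, beside 7 in all, and the motif shares were not matched for it. Overlapping windows of the same gene, such as those of Men1, were counted separately. A match is a string of letters and not a bound site.

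The other core genes of PRC2 had differences as small. Eed, which reads the methyl mark, had means of 28.3 ± 0.388 CPM in the cervical set, against 27.1 ± 0.906 CPM in the thoracic set, and the scaffold gene Suz12 had 71.0 ± 2.39 and 69.2 ± 2.36 CPM in the same order. The histone chaperone genes Rbbp4 and Rbbp7 serve several complexes. Rbbp4 stood at 257.4, 267.4 and 264.1 CPM in the cervical set, against 238.2, 259.3 and 236.5 CPM in the thoracic set. Its lowest cervical value lay just below the highest thoracic one (log2 fold change of 0.10 with SE 0.06, edgeR adjusted p = 0.723). Rbbp7, which lies on the X chromosome, averaged 58.9 ± 2.56 and 58.8 ± 1.36 CPM in cervical and thoracic libraries. Summed over the 6 genes, the core stood at 581.2 to 591.7 CPM in the cervical set, against 551.7 to 565.8 CPM in the thoracic set, without overlap. The sums of the PCGF genes (416.0 to 428.6 CPM in the cervical set, against 393.6 to 406.9 CPM in the thoracic set) and of the variant PRC1 genes (170.7 to 181.8 against 163.2 to 166.4 CPM) did not overlap either. The sum of the CBX genes lay the other way, also without overlap, at 217.0 to 237.4 CPM in the cervical set, against 239.8 to 246.8 CPM in the thoracic set. The sums of the remaining groups overlapped. These sums were not tested, and abundant genes weigh most in them. The largest differences of means were those of Rbbp4 in the core, Bmi1 (98.8 against 84.2 CPM, cervical first) and Cbx6 (153.8 against 167.3 CPM). Of the log2 fold changes, 5 of the core genes lay above 0 and 1 below, and 4 and 2 of the PCGF genes. All 3 variant PRC1 genes lay above 0, while 1 CBX gene lay above 0 and 3 below. Single genes did not overlap in 13.7% of all tested genes, a share that does not apply to sums of several genes.

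Among accessory subunits, Jarid2 helps to recruit PRC2. It stood at 424.3, 378.9 and 408.8 CPM in the cervical set, against 384.2, 355.4 and 378.6 CPM in the thoracic set. The regions overlapped in a narrow range (log2 fold change of 0.12 with SE 0.06, edgeR adjusted p = 0.706). Aebp2, another partner of PRC2, averaged 64.2 CPM in both regions, with SDs of 4.43 in cervical and 1.56 in thoracic libraries. Of the Polycomb-like genes, Mtf2 averaged 144.6 ± 5.16 CPM in cervical libraries against 141.3 ± 11.4 CPM in thoracic ones (log2 fold change 0.03), Phf1 24.1 ± 0.491 against 23.0 ± 2.65 CPM (0.07) and Phf19 0.876 ± 0.129 against 0.795 ± 0.483 CPM (0.11). Of their per-length sum Mtf2 made up 78.2 ± 0.59% in cervical and 78.5 ± 3.4% in thoracic libraries. Phf1 shares 39.3% of its exonic bases with Cuta on the opposite strand, so its counts are uncertain to that extent.

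PRC1 is built on the ubiquitin ligases Rnf2 and Ring1. Rnf2 stood at 143.0, 140.1 and 144.3 CPM in the cervical set, against 125.6, 142.3 and 146.9 CPM in the thoracic set (log2 fold change of 0.04 with SE 0.07, edgeR adjusted p = 0.939). Ring1 stood at 21.3, 20.0 and 22.9 CPM in the cervical set, against 21.2, 21.4 and 21.0 CPM in the thoracic set (log2 fold change of 0.01 with SE 0.09, edgeR adjusted p = 0.991). The values of both genes overlapped between the regions. Rnf2 made up 84.0 ± 0.72% of their per-length sum in cervical and 83.6 ± 1.2% in thoracic libraries.

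The PCGF subunits decide which form of PRC1 is built. Bmi1, the PCGF protein of canonical PRC1 with a known part in Hox repression, stood at 83.5, 109.1 and 103.8 CPM in the cervical set, against 79.2, 89.3 and 84.1 CPM in the thoracic set. Cervical replicates 2 and 3 lay above all thoracic values, and cervical replicate 1 fell among them. The log2 fold change of Bmi1 was 0.23 (SE 0.09, 95% interval 0.02 to 0.44, unadjusted p = 0.0332, edgeR adjusted p = 0.518, blocked 0.162), so it was not called. Without cervical replicate 1 the adjusted p was 0.0671. Neural progenitor markers (10 genes) summed to 964, 1260 and 1007 CPM in the cervical and 1164, 1524 and 1259.5 CPM in the thoracic replicates. In these sums replicate 2 was highest and replicate 1 lowest in each region, as for Bmi1. Single markers were mixed: Hes1 kept this order in both regions, but Vim was lowest in cervical replicate 3 (282.9 CPM). Nes was highest in thoracic replicate 3 (312.0 CPM). Between regions 9 of the 10 markers had log2 fold changes below 0, unlike Bmi1, and Pax6 had 0.28. The part of progenitor cells in the level of Bmi1 was not tested.

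Pcgf6, of a variant PRC1, stood at 43.5, 43.3 and 47.5 CPM in the cervical set, against 42.7, 39.4 and 38.7 CPM in the thoracic set. The regions did not overlap, but the difference was small (log2 fold change of 0.15 with SE 0.08, edgeR adjusted p = 0.685). Pcgf2, which can replace Bmi1, had equal means, at 100.8 ± 1.84 CPM in the cervical set, against 100.5 ± 6.91 CPM in the thoracic set. Pcgf3 averaged 167.4 ± 21.5 and 163.9 ± 4.33 CPM, Pcgf1 7.56 ± 1.91 and 7.59 ± 0.867 CPM, and Pcgf5 4.94 ± 1.19 and 5.32 ± 0.312 CPM, each with the cervical value first. Per length, Pcgf2 made up 33.7 ± 0.77% and Bmi1 29.2 ± 3.3% of the family in cervical libraries, and 35.7 ± 1.4% and 26.5 ± 1.7% in thoracic ones. Pcgf5 reached at most 0.582% in any library.

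CBX subunits carry the chromodomain with which canonical PRC1 reads the PRC2 mark. Cbx6 stood at 159.2, 146.4 and 155.9 CPM in the cervical set, against 168.9, 159.5 and 173.4 CPM in the thoracic set. The regions did not overlap, though 159.2 and 159.5 CPM are adjacent (log2 fold change of -0.12 with SE 0.06, 95% interval -0.25 to 0.01, edgeR adjusted p = 0.646). Cbx2 and Cbx8 lie 5034 bases apart on chromosome 11 (mm39). Cbx2 averaged 41.2 ± 1.86 CPM in cervical against 40.1 ± 3.06 CPM in thoracic libraries (log2 fold change 0.04), and Cbx8 29.5 ± 1.83 against 31.4 ± 1.44 CPM (-0.09). Cbx7 averaged 5.01 ± 0.729 CPM in the cervical set, against 5.09 ± 0.614 CPM in the thoracic set. Of these 4 genes, Cbx6 made up 44 ± 0.41% per length in cervical and 45.7 ± 2.4% in thoracic libraries, and Cbx2 29.3 ± 0.16% and 27.3 ± 1.7%.

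Polyhomeotic genes, whose proteins polymerise PRC1, had overlapping values. Phc1 averaged 163.1 ± 6.69 CPM in the cervical set, against 154.1 ± 8.91 CPM in the thoracic set, Phc2 205.7 ± 17.1 against 203.4 ± 10.8 CPM and Phc3 113.9 ± 4.83 against 117.1 ± 12.2 CPM, with log2 fold changes of 0.08, 0.02 and -0.04. Among partners of variant PRC1, Yaf2 stood at 39.1, 36.2 and 34.1 CPM in the cervical set, against 33.2, 30.0 and 33.7 CPM in the thoracic set. Its regions did not overlap (log2 fold change of 0.17 with SE 0.09, edgeR adjusted p = 0.663). Its paralog Rybp averaged 32.9 ± 3.49 CPM in cervical against 30.8 ± 1.95 CPM in thoracic libraries (log2 fold change 0.09), and the CpG-binding subunit Kdm2b 106.3 ± 5.54 against 101.3 ± 4.04 CPM (0.07), both with overlap. Yaf2, Pcgf6 and Cbx6 were the 3 genes of 44 without overlap between regions, while 13.7% of all tested genes had none.

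PR-DUB removes the ubiquitin that PRC1 adds. The catalytic gene Bap1 averaged 142.8 ± 8.01 CPM in the cervical set, against 145.2 ± 5.94 CPM in the thoracic set. Its partner genes Asxl1 and Asxl2 averaged 146.6 ± 11.6 and 73.9 ± 5.38 CPM in cervical libraries, against 155.5 ± 5.51 and 74.7 ± 3.41 CPM in thoracic ones (log2 fold changes -0.08 and -0.02). Asxl3, another partner, stood at 392.3, 319.3 and 339.1 CPM in the cervical set, against 377.0, 355.1 and 424.5 CPM in the thoracic set. The regions overlapped (log2 fold change of -0.14 with SE 0.09, edgeR adjusted p = 0.781). It made up 47.8 ± 0.78% of the per-length sum of the 3 Asxl genes in cervical and 48.9 ± 1.5% in thoracic libraries.

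**Figure D3:**
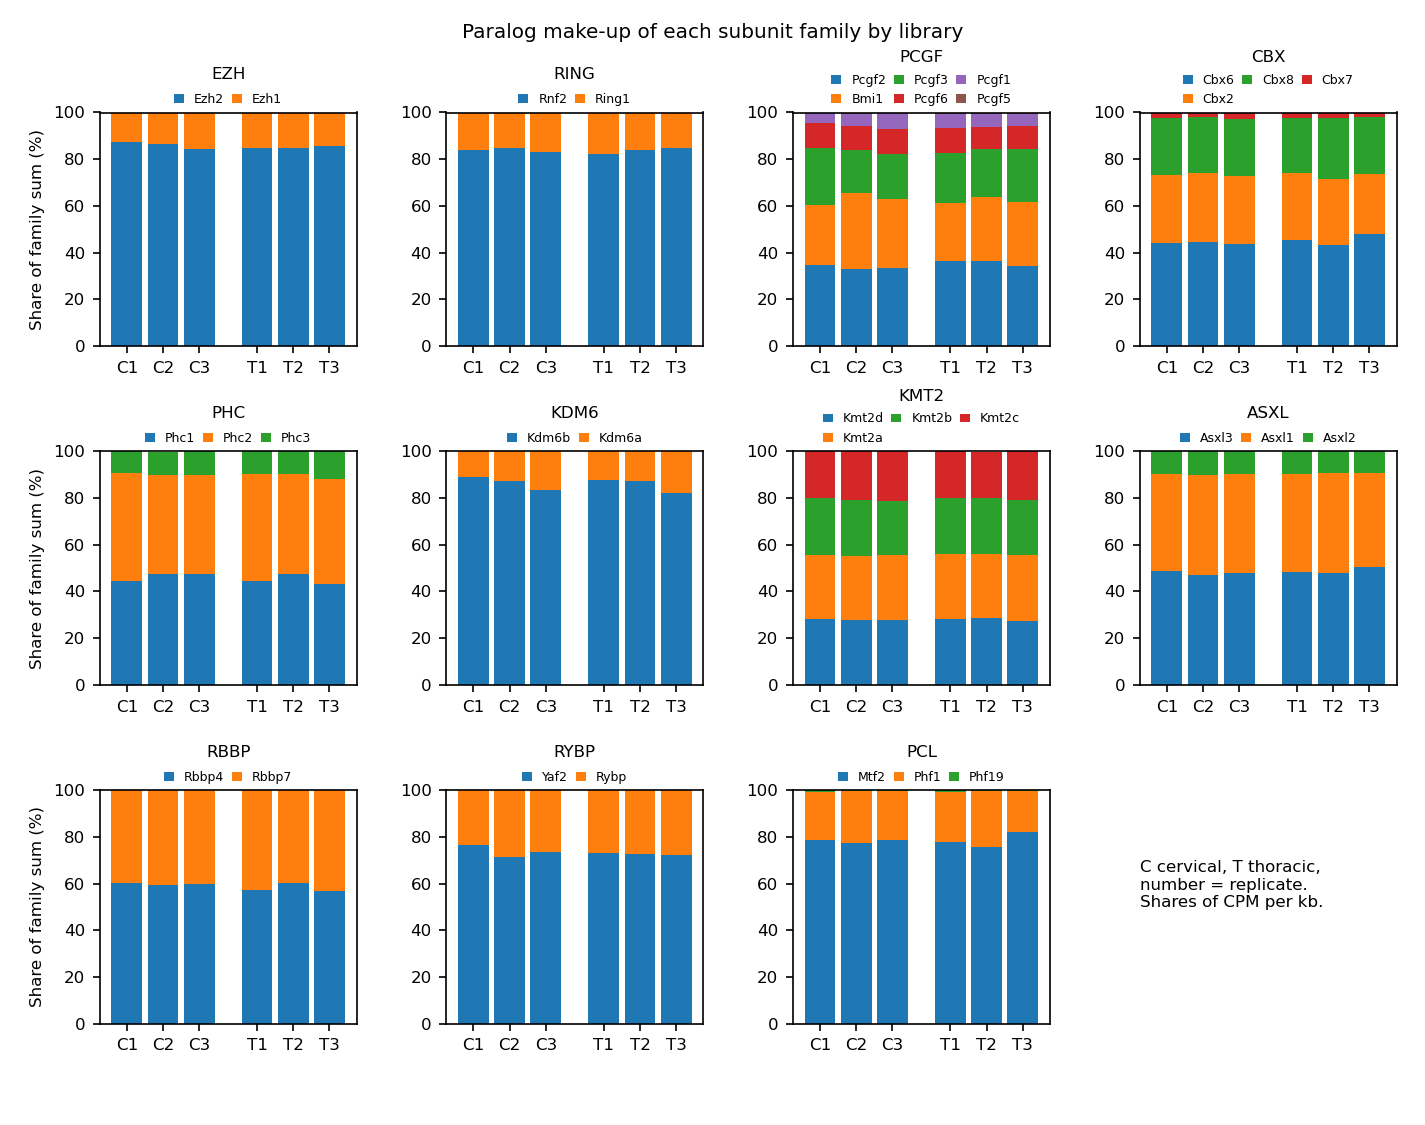
Share of each paralog in the per-length sum of its family (stacked bars, 0 to 100%) in the cervical (C) and thoracic (T) libraries; EZH to PCL name the families, PCL being the Polycomb-like genes. The Ezh2 share is 84.3 to 87.2% in all 6 libraries, and the Kdm6a share is highest in replicate 3 of both regions (16.4% in cervical and 17.7% in thoracic libraries).

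Trithorax methyltransferase genes had small regional differences. Kmt2a, whose product maintains Hox expression, stood at 621.9, 538.7 and 571.1 CPM in the cervical set, against 614.8, 563.6 and 617.2 CPM in the thoracic set, with overlap (log2 fold change of -0.05 with SE 0.07, 95% interval -0.21 to 0.10, edgeR adjusted p = 0.928). Kmt2b averaged 285.4 ± 27.1 CPM in cervical against 290.7 ± 10.7 CPM in thoracic libraries, Kmt2c 524.8 ± 25.5 against 526.8 ± 28.9 CPM and Kmt2d 697.3 ± 56.6 against 713.9 ± 23.9 CPM, with log2 fold changes of -0.03, -0.01 and -0.03. The 4 genes each made up 20.3 to 28.0% of their per-length sum in the region means. Menin (Men1), a partner of Kmt2a and Kmt2b, averaged 82.6 ± 3.55 CPM in the cervical set, against 84.9 ± 4.18 CPM in the thoracic set. Ash1l, a methyltransferase of another H3 residue, averaged 308.2 ± 8.81 CPM in cervical against 317.1 ± 11.1 CPM in thoracic libraries (log2 fold change -0.04). The shared core subunits were level, Ash2l at 121.7 ± 7.02 against 121.5 ± 3.79 CPM (0.00) and Wdr5 at 46.0 ± 3.92 against 45.8 ± 1.53 CPM (0.01).

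Across the 8 trithorax genes, cervical replicate 1 was the highest cervical library for 7 of the 8, and cervical replicate 2 the lowest for 7. Their sum was 2829, 2505 and 2595 CPM in the cervical and 2760, 2596 and 2743 CPM in the thoracic replicates. The cervical order was not confined to these 8 genes. Of all 44 genes, cervical replicate 1 was the highest cervical library for 24, replicate 2 for 5 and replicate 3 for 15. Cervical replicate 2 was the lowest for 30, replicate 1 for 8 and replicate 3 for 6. The 44 genes summed to 7084.9, 6417.9 and 6689.5 CPM in the cervical and 6822.7, 6559.6 and 6829.8 CPM in the thoracic replicates. Motor neuron markers (8 genes) summed to 592, 304 and 445 CPM in the cervical and 583, 402 and 557 CPM in the thoracic replicates. Within each region this was the order of the trithorax sum, and in the cervical set also that of the sum over the 44 genes. In bulk RNA, fewer cells of a type and less RNA per cell cannot be told apart, and the part of the cell make-up in these values was not tested.

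Of the H3K27 demethylases, Kdm6b stood at 511.8, 440.6 and 435.3 CPM in the cervical set, against 486.8, 451.3 and 436.8 CPM in the thoracic set, with overlap (log2 fold change of 0.01 with SE 0.08, edgeR adjusted p = 0.988). Kdm6a, on the X chromosome, stood at 75.9, 76 and 103.3 CPM in the cervical set, against 80.5, 77.4 and 113.5 CPM in the thoracic set. The regions overlapped (log2 fold change of -0.09 with SE 0.15, 95% interval -0.42 to 0.25, edgeR adjusted p = 0.948), but replicate 3 was the highest in both. It was 1.36-fold above the mean of the other cervical replicates and 1.44-fold above that of the other thoracic replicates.

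The replicate number was therefore tested as a term of the blocked edgeR fit, a test chosen after the values were seen. Kdm6a was the only one of the 44 genes called by it (edgeR adjusted p = 0.00924), where 0.865% of all tested genes were. Its Y-linked paralog Uty stood at 45.7, 53.1 and 0.250 CPM in the cervical set, against 43.5, 44.1 and 0.154 CPM in the thoracic set, so replicate 3 of each region was close to 0. The same was true of Kdm5d, a Y-linked H3K4 demethylase gene, with 0.407 CPM in replicate 3 of the cervical set, 0.247 CPM in that of the thoracic set and 88.9 to 91.2 CPM in the other libraries. Xist, the RNA of X inactivation, had 2166 CPM in replicate 3 of the cervical set and 2010 CPM in that of the thoracic set, and 0.992 to 2.39 CPM elsewhere. Xist was chosen after its values were seen.

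Kdm6a is known to escape X inactivation in mouse cells, and so is Kdm5c, the X-linked paralog of Kdm5d. Kdm5c was 1.2-fold and 1.26-fold higher in replicate 3 of the cervical and thoracic sets than in the mean of their other replicates (replicate term, edgeR adjusted p = 0.0798). Rbbp7, the other X-linked gene of the 44, was 1.02-fold and 1.03-fold higher by the same measure. Kdm6a and Uty together gave 13.7, 14.5 and 12.3 CPM per kb in cervical and 14.0, 13.7 and 13.6 CPM per kb in thoracic libraries, a narrower range than that of either gene. Since replicate 3 is in both regions, this spread falls on both sides of the regional comparison.

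**Figure D4:**
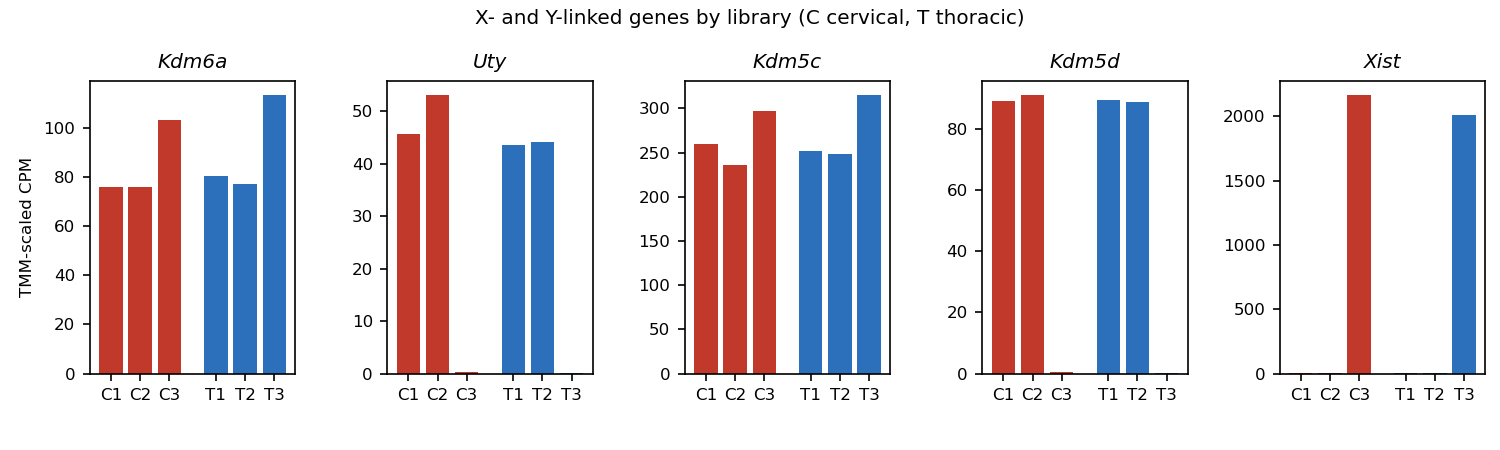
TMM-scaled CPM of Kdm6a, Uty, Kdm5c, Kdm5d and Xist in each cervical (C, red) and thoracic (T, blue) library, 1 bar per library on axes that start at 0. Replicate 3 of both regions has the highest Kdm6a, Kdm5c and Xist and almost no Uty or Kdm5d.

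Ctcf had one of the smallest standard errors of the 44 genes. It stood at 126.1, 120.4 and 128.0 CPM in the cervical set, against 123.9, 127.5 and 123.8 CPM in the thoracic set. The thoracic values all lay within the cervical range (log2 fold change of 0.00 with SE 0.05, 95% interval -0.12 to 0.12, edgeR adjusted p = 0.997). The cohesin genes, whose complex Ctcf halts on DNA, had differences as small, with 0 of 10 called. Rad21, the most abundant of these per length, had a log2 fold change of -0.09 and the loader gene Mau2 one of 0.11 (edgeR adjusted p = 0.820 and 0.615).

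Of 86 other genes of the same pathways, 85 were tested and edgeR called 1, Auts2, where it called 0.542% of all tested genes. Of the 85, 4 had an unadjusted p below 0.05, beside 8.47% of all tested genes. The limma-voom fit also called 1, beside 0.487% of all genes it tested. DESeq2 and the blocked fit called 2 each, beside 2.1% and 1.97% of all genes they tested. Auts2 encodes a subunit of a variant PRC1 and also has roles in neuronal development. It stood at 921.5, 906.2 and 890.0 CPM in the cervical set, against 711.5, 658.3 and 680.5 CPM in the thoracic set. The regions were well apart, and Auts2 rose 1.33-fold in cervical libraries (log2 fold change of 0.41 with SE 0.06, 95% interval 0.28 to 0.54, edgeR adjusted p = 0.0171, blocked 0.0011). It was not called without cervical replicate 2 (0.0622), cervical replicate 3 (0.0768) or thoracic replicate 2 (0.0688). Its partners in that complex, Pcgf3 and Pcgf5, had log2 fold changes of 0.03 and -0.11 with overlap. Interneuron markers (12 genes) summed to 1680 to 1854 CPM in the cervical set, against 1454 to 1475 CPM in the thoracic set. The list was mixed: edgeR called 3 of the 12 as higher in cervical libraries (Pax2, Lhx1 and Slc6a5, log2 fold changes 0.33, 0.45 and 0.45) and 2 as lower (Sim1 and Gata3, -2.25 and -0.85). The part of these cells in the level of Auts2 was not tested.

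Foxk1, a forkhead factor that binds PR-DUB, stood at 96.3, 101.0 and 95.5 CPM in the cervical set, against 119.0, 114.0 and 119.7 CPM in the thoracic set. These did not overlap (log2 fold change of -0.27 with SE 0.06), and it was not called in the unblocked fit (edgeR adjusted p = 0.0742) but was with the replicate block (0.0479) and by DESeq2 (0.0135). No other gene of the 26 further Polycomb genes was called, and the most abundant of them per length, Dcaf7, had a log2 fold change of -0.05. Of 20 further trithorax and MLL genes 19 were tested and 0 called, with the lowest p for Ncoa6 (log2 fold change -0.10) and Kat6a (-0.09), while the abundant Hcfc1 had 0.00. Of 6 genes of H3K4 demethylation with Uty 0 were called, Kdm5a, Kdm5b and Kdm1a having -0.08, -0.03 and 0.02. Of 24 genes of the BAF remodelling complex 0 were called; Smarce1 had 0.18 (edgeR adjusted p = 0.496), Ss18l1 0.09 and the catalytic Smarca4, the most abundant, 0.00.

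**Figure D5:**
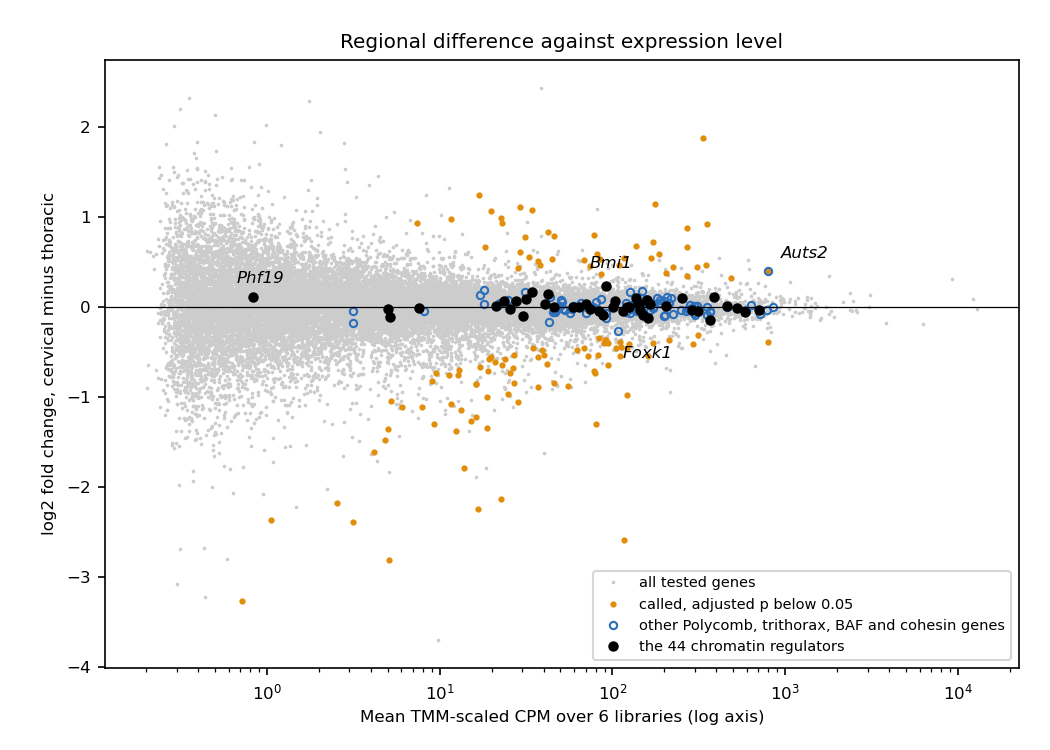
Log2 fold change, cervical minus thoracic, against mean TMM-scaled CPM (log axis) for all tested genes (grey), called genes (orange), other genes of the pathways (blue circles) and the 44 chromatin regulators (black). The black points lie between -0.14 and 0.23, while Auts2 is called at 0.41.

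Thoracic replicate 1 held 53186131 counts, and the other libraries 32103071 to 33790634. Motor neuron markers were detected in every library, and so were interneuron and progenitor markers, whose longer lists summed to higher CPM in each. Cycling cell markers (10 genes) summed to 280.2 to 318.3 CPM in the cervical set, against 332.0 to 407.7 CPM in the thoracic set, without overlap. No motor neuron, progenitor, cycling cell, mesenchyme or sensory and glial marker was called by the unblocked edgeR fit. With the replicate block 2 motor neuron, 3 progenitor, 2 cycling cell and 2 mesenchyme markers were called as lower in cervical libraries, and 1 sensory or glial marker as higher. Mesenchyme markers (6 genes) summed to 13.7 to 150.4 CPM in the cervical set, against 84.8 to 157.8 CPM in the thoracic set, and sensory ganglion and glial markers (7 genes) to 81.0 to 101.6 and 68.8 to 84.3 CPM. Erythroid, macrophage and endothelial markers stayed at or under 18.2 CPM in every library, and no marker listed was at 0 in all libraries.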

How the data were processed

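The authors deposited raw read counts per gene for 6 libraries. Per the submitters' processing notes they used FastQC 0.11.9, STAR 2.7.5b and featureCounts 2.0.1 with mm39. The libraries were stranded, per the labels' protocols, with 15 PCR cycles. Neither the annotation nor whether featureCounts used strand is stated, so reads from overlapping genes on opposite strands cannot be told apart. Of the 44 genes, 16 share exonic bases with a gene on the opposite strand. With any single partner this is at most 8.94% of the gene, except in Phf1 (39.3% with Cuta). Ctcf shares 2.35% with Agrp and 7.61% with Gm5914.

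Genes were kept by edgeR's default filter (minimum count 10), scaled by TMM and tested with edgeR 4.0.16 in R 4.3.3 (quasi-likelihood, region as the only term, Benjamini-Hochberg adjusted p below 0.05). CPM per kb used the exonic length given in the deposited table. Fold changes use edgeR's prior count of 0.125. DESeq2 1.42.0 and limma-voom 3.58.1 were alternatives. The code was tested on simulated data. Replicate numbers come from the titles. Deviations of same-numbered libraries correlated at 0.163, 0.160 and 0.195, over the limit of 0.1, so the numbers were taken to pair the libraries. Libraries of a region differed by 10.1 to 16.2 times the counting noise and were counted separately.

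The members and gene lists were chosen with earlier results of these data known. Every member is named. Values per library are given for members called in either fit, the 6 with the smallest p, and Ezh1, Ezh2, Rnf2, Ring1, Bmi1, Kmt2a, Kdm6a, Kdm6b and Ctcf. Asxl3 was added after its values were seen. Of each further list, called genes, the 2 with the smallest p and the most abundant per length are named. Promoter windows are from RefSeq on GRCm38.p6, another build than that of the counts.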

Additional observations from a re-analysis of the deposited data

How the results depend on the processing

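None of the 44 genes was called in any of 13 alternatives: the replicate block, median-of-ratios scaling, library totals only, no low-count filter, a mean CPM of at least 1 (which removed Phf19), DESeq2, limma-voom and the 6 fits that left out a library. The uncalled fold change of 26 genes changed sign in at least 1 alternative; these were at most 0.11 (log2) in size with all libraries, and the changed values reached -0.29 for Phf19 without thoracic replicate 3 and 0.16 for Pcgf1 without cervical replicate 1. The median log2 fold change of the 44 was 0.003, and 0.047 without cervical replicate 2; over the 6 fits without a library it ranged from -0.013 to 0.047. Over all genes, 119 differed, against 432 with the replicate block, 747 without a filter and 408 with DESeq2, and 9 (without cervical replicate 3) to 159 (without cervical replicate 1) when a library was left out. Without cervical replicate 2, thoracic replicate 2 and thoracic replicate 3 the counts were 41, 37 and 45. Of the other pathway genes 1 was called, and 2 with the replicate block, without a filter and with DESeq2, Foxk1 being the second in each; leaving out a library gave 0 to 1. Among the 44 genes and the other pathway genes the replicate block changed no other call. The cause of these shifts was not tested. Paralog shares are ratios within a library, so scaling, filters and the choice of fit could not move them, and only leaving out a library could. The Cbx2 share was 29.2 to 29.5% in cervical libraries and 28.3, 28.2 and 25.3% in thoracic replicates 1 to 3, without overlap. Thoracic replicate 3 thus widened its regional difference. The Asxl2 share did not overlap either (9.76 to 10.2% in cervical and 9.05 to 9.58% in thoracic libraries). These shares were not tested. The call of Kdm6a on the replicate term held under median-of-ratios scaling and library totals (edgeR adjusted p = 0.0081 and 0.0198). With 3 libraries per region the interval of Phf19 is too wide to bound its difference within 1.5-fold.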
